A study of Mus musculus with 15 samples.

Results

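Mpzl3, Antxr2, Unc50, Lypla1 and Tcea1 are 5 of the 55573 genes counted in mouse trigeminal ganglia (TG), and they were chosen by their measured rise over vehicle in TG of mice whose injured cornea was treated with the resolvin D6 isomer (RvD6si). Each TG was taken from the side of the injured eye of 10-week-old male CD1 mice. In every group, vehicle included, the centre of the right cornea had been marked with a 2-mm trephine, its epithelium and anterior stroma had been removed, and the eye had been treated 3 times a day for 12 days. The 3 groups of 5 TG received vehicle (replicates 1 to 5), RvD6-standard, here RvD6 (replicates 6 to 10), or RvD6-isomer, here RvD6si (replicates 11 to 15). No uninjured TG entered the comparison, so every difference below is between treatments of an injured eye. The amounts of RvD6 and RvD6si applied in this experiment are not given in the sources used here.

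RvD6 is a resolvin, one of the lipid mediators that cells make from docosahexaenoic acid, and RvD6si is a stereoisomer of it, with the same atoms and bonds in another spatial arrangement. The TG holds the cell bodies of the sensory neurons whose axons form the corneal nerves, together with satellite glia, Schwann cells, vessels and connective tissue. The 5 genes belong to no common pathway. Lypla1 encodes acyl-protein thioesterase 1, which takes palmitate off membrane proteins. Tcea1 encodes the elongation factor TFIIS, which restarts stalled RNA polymerase II by making it cut its transcript. Antxr2 encodes an anthrax toxin receptor that also binds basement membrane collagen and laminin, Mpzl3 a membrane protein with an immunoglobulin domain, and Unc50 a Golgi membrane protein whose worm relative is needed to bring nicotinic acetylcholine receptors to the cell surface.

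All 5 genes passed the filter on low counts, which kept 16567 genes. The rise under RvD6si used to pick them is given as a description and was not tested again. It was not the steepest of the table: by log2 fold change they ranked 92nd (Mpzl3), 129th (Antxr2), 504th (Unc50), 824th (Lypla1) and 982nd (Tcea1) of all tested genes. At an adjusted p under 0.05 in edgeR 111 genes (0.67%) differed between RvD6si and vehicle, 87 of them (0.525%) higher under RvD6si, and 3 of the 5 genes were among the higher ones, namely Mpzl3, Antxr2 and Tcea1. This count was 0 of 5 without any 1 vehicle replicate, without RvD6si replicate 11 or without replicate 14, and 1 without replicate 13. It was 2 with the trend of each library on gene length removed, and 5 with DESeq2 or without RvD6 replicate 9. In this comparison DESeq2 called 920 of 11321 genes with an adjusted p, and edgeR called 229 of 17013 without that replicate. Over all genes, the 111 calls became 6 to 13 without 1 vehicle replicate. In the order of rise among the 87 genes called higher, Mpzl3, Antxr2 and Tcea1 were 2nd, 3rd and 51st.

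On GRCm38, Mpzl3 (ENSMUSG00000070305.10) spans chromosome 9, 45055186 to 45077436, on the plus strand. Antxr2 (ENSMUSG00000029338.13) spans chromosome 5, 97882783 to 98031043, on the minus strand. The other three lie on the plus strand of chromosome 1. Lypla1 (ENSMUSG00000025903.14) spans 4807788 to 4848410, Tcea1 (ENSMUSG00000033813.15) 4857814 to 4897909, and Unc50 (ENSMUSG00000026111.15) 37430139 to 37439124. Lypla1 and Tcea1 are next to each other, with 9.40 kb between the end of the first and the start of the second. The annotation also holds Gm37988, a model on the same strand that shares 629 exonic bases with Lypla1 (8.80% of its exonic length) and 196 with Tcea1 (6.50%). A read that overlaps 2 genes was dropped in counting, which leaves these bases out of the values of both. Mpzl3 shares 133 exonic bases (1.90%) with Gm48840, which lies on the other strand, and strand was not kept in these libraries. There a read of Mpzl3 or Gm48840 overlaps both genes, so these bases too are left out of the values.

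RefSeq promoter sequence was at hand for Antxr2 and Unc50, 2 of the 5 genes, and is printed because the stretch before Unc50 is also the stretch before a neighbour, whose values can be set beside it, and that before Antxr2 is not. Both are written 5′ to 3′ along the gene, on GRCm38.p6, with bases outside every annotated exon only. Capitals mark matches on either strand to a listed motif. The motifs were the GC box with the letters GGGCGG and the TATA box with the letters TATAAA. The ETS core was read as CGGAAG, the CCAAT box by the letters in its name, and the cAMP response element as TGACGTCA.
Antxr2, chr5:98031044-98031267, minus strand: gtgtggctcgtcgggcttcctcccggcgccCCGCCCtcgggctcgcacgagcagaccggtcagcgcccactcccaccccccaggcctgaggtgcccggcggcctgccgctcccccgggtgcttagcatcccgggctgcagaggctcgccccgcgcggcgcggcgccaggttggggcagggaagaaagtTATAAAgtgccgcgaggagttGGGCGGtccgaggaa
Unc50, chr1:37430104-37430138, plus strand: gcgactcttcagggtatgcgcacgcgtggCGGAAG
The 224 bases before Antxr2 were 73.7% G or C and held 26 CpG pairs, where the median of the same window over 32851 promoters was 51.8% and 5 pairs. They held 2 GC boxes, where 29.1% of such windows held at least 1, and 1 TATA box, where 10.3% held at least 1. The 35 bases before Unc50 are the whole gap to Coa5, a cytochrome c oxidase assembly factor gene that starts on the other strand. They held 1 ETS core, found in 3.84% of windows of that size and place. No other listed motif was found in either stretch, and a match in letters is not a measured binding site.

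Before the 5 genes are described, some libraries need naming. Totals ran from 4125962 to 9903396 counted reads. All 10 sensory neuron markers passed the filter, with summed levels of 10621 to 11626 CPM (counts scaled to a common library total) in vehicle, 5805 to 10321 in RvD6 and 10471 to 12475 in RvD6si, so the labelled tissue was borne out by its defining cells. The RvD6 sums lay below all vehicle sums. None of the 10 markers had a log2 fold change above 0 in RvD6 against vehicle, and none was called. RvD6 libraries carried more counts of neutrophil genes (679 to 2236 summed CPM over 7 markers, against 109 to 565 in vehicle), erythroid genes (5682 to 10435 over 5 markers, against 2261 to 4953) and skeletal muscle genes (84.2 to 2332 over 6 markers, against 15.1 to 144, which overlap). In RvD6si the muscle sums were 10.4 to 30.7 CPM, below all RvD6 sums. Of the 6 muscle markers, 5 were called as lower in RvD6si than in RvD6, where 39 genes in all were called. RvD6 replicate 9 was the highest in muscle genes (2332 CPM), the lowest in neuron genes (5805 CPM) and the highest in the share of mitochondrial counts (12.5%). RvD6si replicate 15 had the lowest total, and it stood apart from the other 4 of its group with 2054 against 53.9 to 127 CPM of neutrophil genes and 12793 against 967 to 2704 CPM of erythroid genes. The sum of satellite glia genes was lower in RvD6 (4955 to 6346 CPM over 6 markers) than in vehicle (6724 to 7865), with RvD6si at 4633 to 6786. Of these 6 markers, 3 had a log2 fold change above 0 in RvD6 against vehicle, and none was called. Fibroblast genes summed to 1326 to 2168 CPM over 6 markers in RvD6, 1302 to 1676 in vehicle and 1264 to 1617 in RvD6si. All 6 fibroblast markers lay above 0 in RvD6 against vehicle, 5 in RvD6si against vehicle and 0 in RvD6si against RvD6, with none called. The 10 most counted genes took 12.5% to 13.8% of counts in RvD6si, 16.1% to 17.3% in vehicle and 16.8% to 20.9% in RvD6. The mitochondrial share was 5.93% to 6.94% in RvD6si, 6.87% to 9.26% in vehicle and 8.76% to 12.5% in RvD6. In bulk TG, more cells of a type and more RNA per cell cannot be told apart.

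Per length, the levels under vehicle had the following order. Unc50 (26.3 ± 7.83 TPM, counts per length scaled to a common total, SD, n = 5) and Tcea1 (25.8 ± 2.08) were the most abundant and did not differ beyond their spread. Lypla1 stood at 8.25 ± 0.384 TPM. Antxr2 (2.46 ± 0.738) and Mpzl3 (1.82 ± 0.922) were low and lay within the spread of each other. In RvD6si the order was Unc50 (68.5 ± 14.3), Tcea1 (55.0 ± 11.9), Lypla1 (18.6 ± 4.17), Antxr2 (10.0 ± 4.12) and Mpzl3 (8.19 ± 3.06), and again Unc50 with Tcea1, and Antxr2 with Mpzl3, overlapped.

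**Figure D1:**
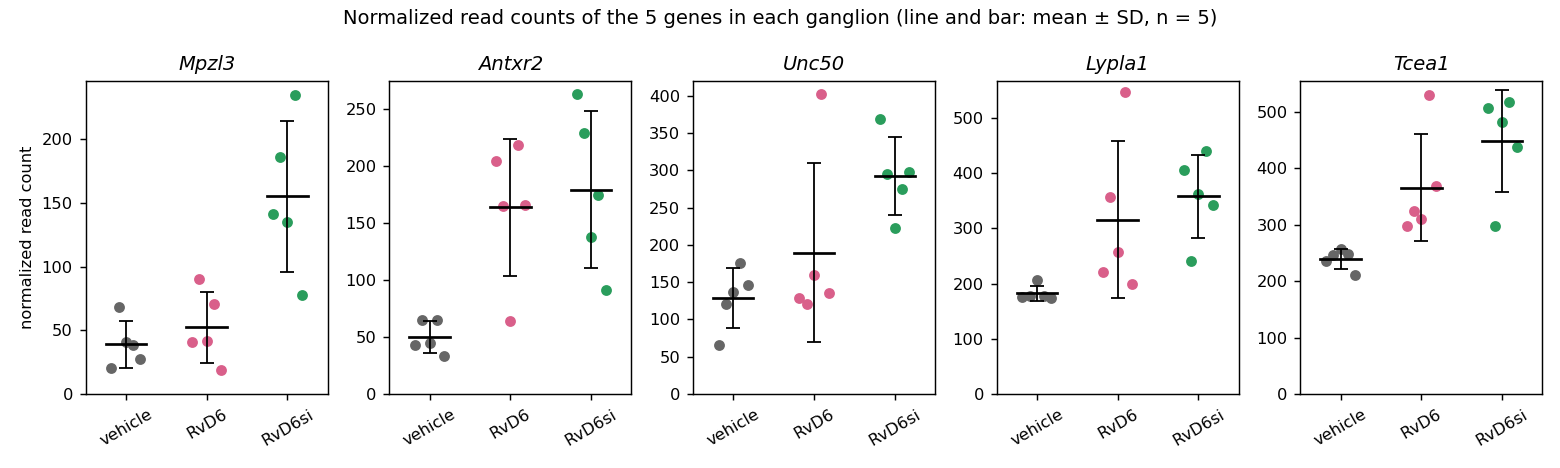
Normalized read counts (vertical axis, starting at 0, a scale of its own for each gene) of the 5 genes in vehicle, RvD6 and RvD6si TG. Each point is a TG, and the line and bar give the mean ± SD of 5. All RvD6si points lie above all vehicle points in each gene, while RvD6 points lie low for Mpzl3, high for Antxr2 except for 1, and spread from low to high for Unc50 and Lypla1.

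Mpzl3, the membrane protein with an immunoglobulin domain, was the gene whose rise was least shared by RvD6 when all samples were used. Without RvD6 replicate 9 that gene was Unc50. The normalized read counts of Mpzl3 in vehicle TG were 20.2, 68.5, 40.9, 38.4 and 27.1. Under RvD6 they were 40.6, 90.1, 42.0, 70.7 and 19.1. Under RvD6si they were 141, 186, 135, 235 and 78.0. RvD6 samples thus ran from below the lowest vehicle TG to above the highest, with 2 of 5 above all vehicle TG, whereas 4 of 5 RvD6si samples lay above all RvD6 samples. The exception was replicate 15, at 78.0 against a highest RvD6 value of 90.1. Group means were 39.0 ± 18.5, 52.5 ± 27.9 and 155 ± 58.9 (SD, n = 5), and the RvD6si level was 3.97-fold that of vehicle (log2 fold change 1.99, SE 0.41).

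For Mpzl3, RvD6 and vehicle could not be distinguished in edgeR (log2 fold change 0.41, 95% interval -0.44 to 1.27, adjusted p = 0.699). The difference became 0.13 without RvD6 replicate 7, 0.63 without RvD6 replicate 10, and 0.25 and 0.71 without vehicle replicates 1 and 2. RvD6si against RvD6 gave a log2 fold change of 1.58 with an interval of 0.72 to 2.43, which is above 0, but the adjusted p over all genes was 0.172. DESeq2 gave 0.0224 for the same comparison, where the alternatives with all samples ranged up to 0.238 and those without 1 sample from 0.0524 to 0.399. The RvD6si samples are those that led to the choice of Mpzl3, so this difference is not independent of that choice. The vehicle spread of Mpzl3 was wide (coefficient of variation 47.4%, where counting alone gives 15.8%), and its counts were small, 28 to 77 reads in vehicle and 48 to 233 in RvD6si. Its paralogs Mpzl1 and Mpzl2 did not pass the test in any comparison. Mpzl1 had means of 570 ± 111, 527 ± 66.4 and 499 ± 119 normalized counts in vehicle, RvD6 and RvD6si (n = 5), and Mpzl2, which lies just before Mpzl3 on chromosome 9, had 8.46 ± 10.5, 9.29 ± 5.85 and 7.99 ± 4.72.

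Antxr2, the collagen and laminin binding receptor, showed the opposite pattern, with a rise of nearly the same size under both lipids. Its normalized counts were 43.3, 64.9, 44.9, 64.9 and 33.7 in vehicle TG. They were 205, 165, 64.4, 218 and 166 under RvD6. They were 263, 229, 138, 175 and 91.0 under RvD6si. In the RvD6 group 4 of 5 samples lay above all vehicle TG, the exception being replicate 8 at 64.4, and the RvD6 and RvD6si values overlapped over most of their range. The means were 50.4 ± 14.0, 164 ± 60.2 and 179 ± 69.0 (SD, n = 5), a 3.55-fold level under RvD6si (log2 fold change 1.83, SE 0.33) and a 3.23-fold level under RvD6.

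The RvD6 difference of Antxr2 was 1.69 on the log2 scale (95% interval 0.99 to 2.39). Its unadjusted p was 7.69e-05, but its adjusted p was 0.0967 in edgeR, short of the threshold of 0.05. The call depended on the processing: the adjusted p was 0.000557 in DESeq2, 0.0210 without the filter, 0.0413 with at least 10 counts in every sample and 0.0340 without RvD6si replicate 15, in a range up to 0.0986 over the alternatives with all samples and up to 0.225 without 1 sample. RvD6si and RvD6 differed by 0.14 on the log2 scale (interval -0.53 to 0.81, adjusted p = 0.948), and the sign turned when RvD6 replicate 8 (-0.0505) or RvD6si replicate 11 (-0.0332) was left out. The interval still allows a level under RvD6si from 0.691 to 1.75 times that under RvD6, so the data do not show that both lipids act alike on this gene.

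Unc50, the Golgi protein, was the gene with the most uneven RvD6 group. Vehicle TG had normalized counts of 65.6, 121, 137, 175 and 146. RvD6 TG had 129, 121, 160, 403 and 136. RvD6si TG had 368, 296, 223, 275 and 297. RvD6 replicate 9, at 403, lay above every other sample of the experiment, and the other 4 RvD6 samples all lay within the vehicle range. The means were 129 ± 40.6, 190 ± 120 and 292 ± 52.3 (SD, n = 5). The RvD6si level was 2.25-fold that of vehicle (log2 fold change 1.17, SE 0.32).

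The difference of Unc50 between RvD6 and vehicle was 0.54 on the log2 scale (95% interval -0.13 to 1.21, edgeR adjusted p = 0.484) and fell to 0.06 when RvD6 replicate 9 was left out. RvD6si minus RvD6 was 0.63 (interval -0.03 to 1.30, adjusted p = 0.589) and became 1.11 without that replicate, with an adjusted p of 0.0925, where leaving out other samples gave up to 0.843. Coa5, which starts 35 bases away on the other strand, had means of 952, 1148 and 1214 normalized counts in vehicle, RvD6 and RvD6si, and its log2 fold change under RvD6si of 0.34 (SE 0.16) had an adjusted p of 0.28 in edgeR.

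Lypla1, the depalmitoylating enzyme, was the most even of the 5 genes in vehicle TG together with Tcea1. Its vehicle counts were 175, 178, 206, 178 and 174. Under RvD6 they were 220, 356, 256, 548 and 199. Under RvD6si they were 405, 241, 361, 440 and 343. The vehicle TG varied by 7.44%, close to the 6.82% that counting alone gives, while RvD6 TG varied by 45.2% and RvD6si TG by 21.1%. In RvD6, 4 of 5 samples lay above the highest vehicle TG, replicate 10 (199) lay within the vehicle range, and replicate 9 (548) lay above all RvD6si samples. Means were 182 ± 13.6, 316 ± 143 and 358 ± 75.5 (SD, n = 5), and the RvD6si level was 1.96-fold that of vehicle (log2 fold change 0.97, SE 0.24).

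Lypla1 under RvD6 was 0.78 above vehicle on the log2 scale (95% interval 0.27 to 1.29). In edgeR its p was 0.00502 before adjustment over all genes and 0.191 after. RvD6si minus RvD6 was 0.19 (interval -0.31 to 0.70, adjusted p = 0.867). It became 0.49 without RvD6 replicate 9, 0.31 without RvD6si replicate 12, 0.11 without RvD6si replicate 14, and 0.0993 and 0.0674 without RvD6 replicates 6 and 10. Its paralog Lypla2, which encodes acyl-protein thioesterase 2, had means of 60.0 ± 10.0, 125 ± 83.9 and 151 ± 35.6 in vehicle, RvD6 and RvD6si (n = 5). Its log2 fold change under RvD6si was 1.32 (SE 0.33, adjusted p = 0.0642) and under RvD6 1.04 (adjusted p = 0.196), both short of the threshold.

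Tcea1, the elongation factor, was the only one of the 5 genes in which all RvD6 samples lay above all vehicle samples. Its normalized counts were 236, 246, 257, 248 and 211 in vehicle TG. They were 298, 324, 310, 529 and 367 under RvD6. They were 506, 297, 482, 517 and 437 under RvD6si. The lowest RvD6si sample (replicate 12, 297) lay just under the lowest RvD6 sample (replicate 6, 298), and RvD6 replicate 9 again lay highest. The means were 240 ± 17.5, 366 ± 95.2 and 448 ± 89.7 (SD, n = 5), with a 1.86-fold level under RvD6si (log2 fold change 0.90, SE 0.19). Vehicle TG varied by 7.30%, where counting alone gives 5.94%.

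Tcea1 under RvD6 was 0.59 above vehicle on the log2 scale (95% interval 0.20 to 0.99). In edgeR its p was 0.00522 before adjustment over all genes and 0.191 after. RvD6si minus RvD6 was 0.30 (interval -0.09 to 0.69, adjusted p = 0.680) and became 0.48 without RvD6 replicate 9. Tcea2, its paralog, had means of 306 ± 92.6, 328 ± 34.9 and 268 ± 64.3 normalized counts (n = 5) and passed the test in no comparison. Tcea3 did not pass the filter on low counts.

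**Figure D2:**
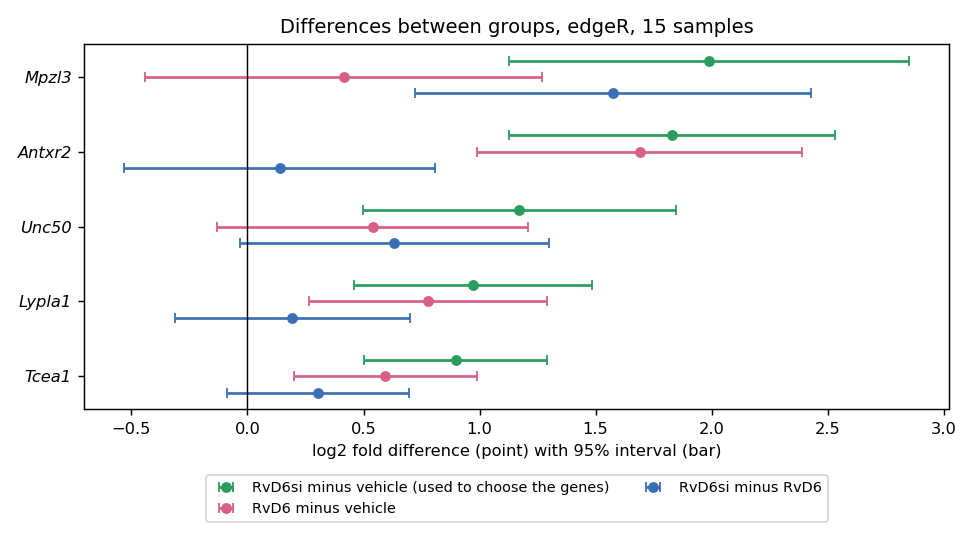
Log2 fold differences (horizontal axis) of the 5 genes between pairs of groups, with 95% intervals as bars, from an edgeR fit of 15 samples. The RvD6si minus RvD6 interval lies above 0 for Mpzl3 (0.72 to 2.43), and includes 0 for the other 4 genes; the RvD6 minus vehicle interval lies above 0 for Antxr2, Lypla1 and Tcea1.

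Counted over the 5 genes, none was called between RvD6 and vehicle in edgeR, where 0% of tested genes were called. By an unadjusted p under 0.05, 3 of the 5 (Antxr2, Lypla1 and Tcea1) were higher under RvD6, against 7.63% of all tested genes. DESeq2 called 1, Antxr2, where it called 369 of 19190 genes with an adjusted p, 277 of them higher under RvD6. All 5 log2 fold changes were above 0, with a median of 0.59, against a median of 0.02 and 52.2% above 0 over all tested genes, but vehicle samples that are low by the choice of the genes raise these values too. Tcea1 alone had 5 RvD6 samples above 5 vehicle samples, a pattern of 2.25% of tested genes. This comparison uses the vehicle samples by which the genes were picked.

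Between RvD6si and RvD6, edgeR called none of the 5 genes, where 0.235% of tested genes were called, 0.0121% as higher under RvD6si. By an unadjusted p under 0.05 in edgeR, Mpzl3 alone was higher under RvD6si, against 4.18% of tested genes. DESeq2 called Mpzl3, where it called 185 of 19769 genes with an adjusted p, 51 of them higher under RvD6si. All 5 differences were above 0, with a median of 0.30. The genes were chosen for their high RvD6si samples, which favours this direction, so nothing is read from it. In none of the 5 did all RvD6si samples lie above all RvD6 samples, a pattern of 0.652% of tested genes. Against vehicle, all RvD6si samples lay above all vehicle samples in each of the 5 genes, where 2.48% of tested genes did so, but this is the contrast by which the genes were picked.

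The share of the rise also seen under RvD6 was taken as the RvD6 log2 fold change over the RvD6si log2 fold change, both against the same vehicle samples. It was 20.8% for Mpzl3, 46.0% for Unc50, 66.2% for Tcea1, 80.1% for Lypla1 and 92.4% for Antxr2. On the linear scale the shares were 11.6%, 37.2%, 60.4%, 76.0% and 87.9%, in the same order. For all 87 genes called higher under RvD6si the log2 share had a median of 52.0%, with its middle range from 34.3% to 68.0% and its extremes at 8.77% and 127%. Mpzl3 thus lay below that middle range, Unc50 and Tcea1 within it, and Lypla1 and Antxr2 above it.

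The shares differed in how far they depended on single samples. No interval was computed for a share, so the ranges below do not measure its sampling error. When each of the 15 samples was left out in turn, Mpzl3 ranged from 6.56% to 31.5% and Antxr2 from 84.8% to 103%, so these 2 ranges did not overlap. Unc50 ranged from 4.83% to 56.9%, Lypla1 from 49.6% to 93.1% and Tcea1 from 46.5% to 72.3%. In these 3 genes the lowest share was that without RvD6 replicate 9. Their RvD6 log2 fold changes were then 0.06, 0.48 and 0.42. Without that replicate the share of Unc50, 4.83%, lay below that of Mpzl3, 14.3%.

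**Figure D3:**
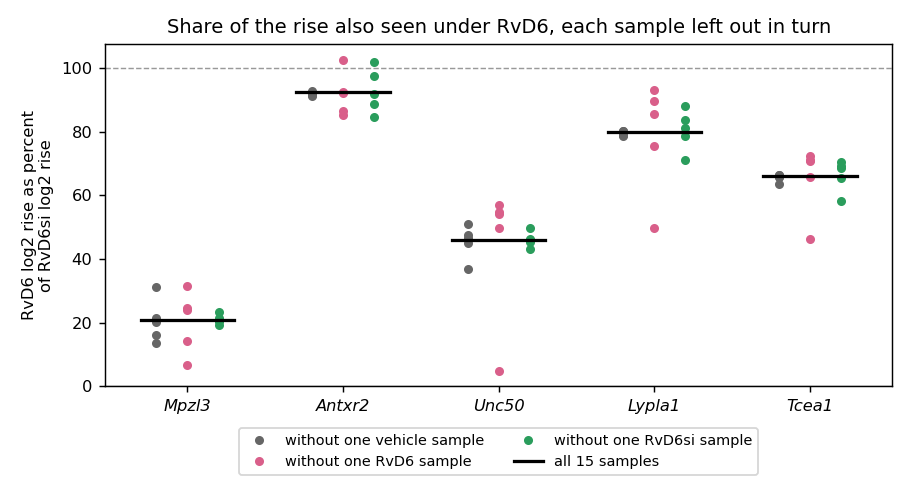
RvD6 log2 rise as a percent of the RvD6si log2 rise (vertical axis) for each of the 5 genes. The line is the value with all 15 samples and each point a value with 1 sample left out, coloured by its group. Unc50, Lypla1 and Tcea1 each have 1 low RvD6 point (4.83%, 49.6% and 46.5%), which is the fit without replicate 9.

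Without both RvD6 replicate 9 and RvD6si replicate 15, the rise under RvD6si was 2.15 for Mpzl3, 1.99 for Antxr2, 1.16 for Unc50, 0.99 for Lypla1 and 0.91 for Tcea1 on the log2 scale, much as with all samples. The shares were then 13.3%, 78.7%, 5.62%, 49.3% and 46.7%. The RvD6 difference of Antxr2 was 1.57 with an adjusted p of 0.0616 in edgeR. The RvD6si minus RvD6 difference of Mpzl3 was 1.87 with an adjusted p of 0.0610, and that of Unc50 was 1.10 with an adjusted p of 0.0684. The part of neuron, muscle, neutrophil, erythroid, satellite glia and fibroblast RNA and of the mitochondrial share in the values of the groups was not tested. With the 10 most counted genes left out, the number of the 5 genes called was the same as with them in all 3 comparisons. The normalization already trims extreme genes, so this setting does not test the group differences in RNA content named above.

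The trend of expression on gene length also differed between the groups, with overlap. The slope of expression on gene length over all tested genes ran from -0.107 to 0.00479 log2 units per doubling of length in vehicle libraries, from -0.0704 to 0.0834 in RvD6 and from -0.00793 to 0.141 in RvD6si. Mpzl3, Antxr2 and Lypla1 are long (6987, 6655 and 7145 exonic bases, against a median of 3968), Tcea1 has 3017 and Unc50 1579. With each library's trend on length removed, the RvD6si minus vehicle log2 fold changes were 1.86 for Mpzl3, 1.68 for Antxr2, 0.83 for Lypla1, 0.91 for Tcea1 and 1.38 for Unc50, so the long genes came out lower and Unc50 higher. Lypla1 and Tcea1 are also poor in G and C (42.2% and 40.7% of transcript bases, against a median of 49.7%). The slope on transcript GC ran from 0.0132 to 0.104 log2 units per 10% GC in vehicle libraries. In RvD6 it ran from -0.206 to 0.0534 and in RvD6si from -0.210 to 0.0678. Of the RvD6si libraries only replicate 11 lay outside the vehicle range. Of the RvD6 libraries replicates 7 (-0.0631), 9 (-0.206) and 10 (-0.0869) lay below it. With the trend on transcript GC removed, the RvD6si minus vehicle log2 fold change was 0.84 for Lypla1 (0.97 before) and 0.75 for Tcea1 (0.90 before). The RvD6 minus vehicle log2 fold change was then 0.60 for Lypla1 (0.78 before) and 0.39 for Tcea1 (0.59 before). The shares of these genes were then 71.0% and 51.7%.

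**Figure D4:**
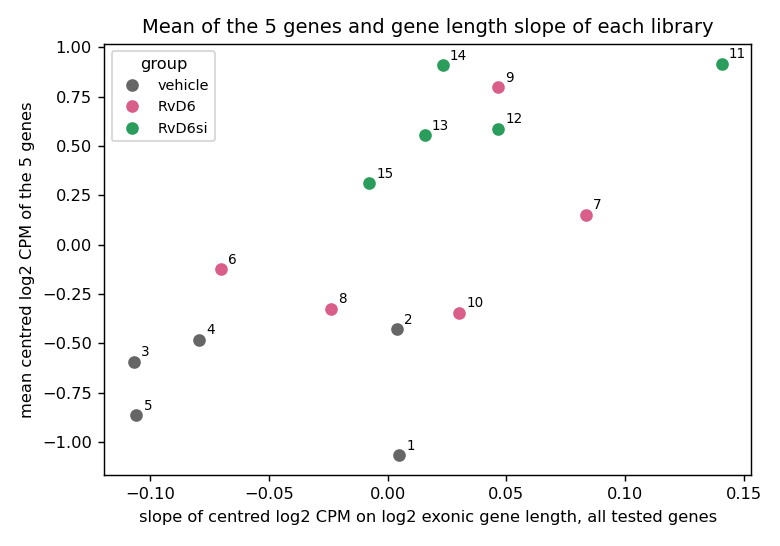
Mean centred log2 CPM of the 5 genes (vertical axis) against the slope of centred log2 CPM on log2 exonic length over all tested genes (horizontal axis) in each of the 15 libraries, labelled by replicate number. Vehicle libraries lie lowest (-1.07 to -0.43), RvD6si libraries highest (0.31 to 0.92), and RvD6 replicate 9 (0.80) lies among the RvD6si libraries.

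Neighbouring genes were compared because Lypla1 and Tcea1 adjoin. Of the 16 other tested genes that lie first or second to either side of the 5 genes, none was called in either comparison with vehicle. Over all tested genes 0% were called under RvD6 and 0.67% under RvD6si. Under RvD6si 7 of the 16 had a log2 fold change above 0, against 51.2% of tested genes, with a range of -1.30 to 0.65 and a median of -0.10. Some had few counts, as had Jaml at the low end (20.5, 17.7 and 8.35 normalized counts in vehicle, RvD6 and RvD6si, SE 0.86). Mrpl15, a mitochondrial ribosomal protein gene that lies before Lypla1, had means of 655, 475 and 470 normalized counts in vehicle, RvD6 and RvD6si. Gm6104, a processed pseudogene within the span of Tcea1 on the other strand, had 47.6, 41.1 and 33.2. Atp6v1h, a proton pump subunit gene whose start lies 212 kb beyond that of Tcea1, had 1863, 1354 and 1619. Mrpl15 and Atp6v1h were the nearest tested genes outside the raised pair on chromosome 1. Their log2 fold changes under RvD6si were below 0 (-0.48 and -0.21), as was that of Gm6104 (-0.52), and none passed the test.

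**Figure D5:**
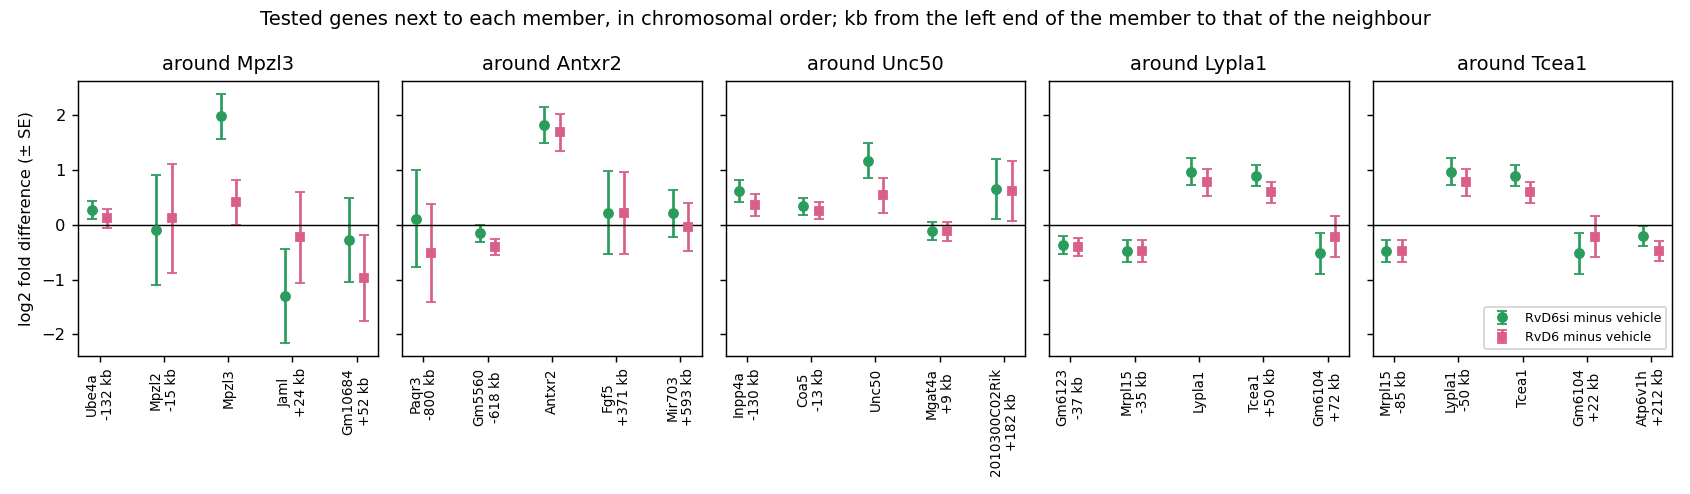
Log2 fold differences ± SE (vertical axis) of each of the 5 genes and the 2 nearest tested genes on either side, in chromosomal order, with the distance in kb between left ends of the genes below each name. Circles are RvD6si minus vehicle and squares RvD6 minus vehicle. Lypla1 and Tcea1 stand above 0 side by side, at 0.97 and 0.90, while their outer neighbours lie below 0.

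Across the 15 TG, after the mean of each group was taken away, Lypla1 and Tcea1 followed each other with a Pearson r of 0.79. Tcea1 ranked 25th among the 16566 other genes by likeness to Lypla1. RvD6si replicate 12 was the lowest of its group in both genes (241 and 297), and RvD6 replicate 9 the highest of its group in both (548 and 529). The other 9 pairs had r between 0.13 and 0.55, with Unc50 and Lypla1 at 0.55 and Mpzl3 and Lypla1 at 0.50. The genes most alike to each were Wdr25, Emc8 and Ccdc151 for Mpzl3 (r of 0.91, 0.81 and 0.80), Zfp870, Gm14536 and Gm11830 for Antxr2 (0.90, 0.86 and 0.84), and Pmpcb, Gm14419 and Ppp4c for Unc50 (0.86, 0.85 and 0.84). Serpini1, Plekha2 and Gfod2 were most alike to Lypla1 (0.88, 0.87 and 0.85) and Ncoa4, Vps35 and Prkar1a to Tcea1 (0.94, 0.92 and 0.91). These values describe 15 libraries that also share depth, base composition and the libraries named above. The most alike genes were picked as the highest of 16566 values, which can be high by chance, and none was tested. Ccdc151, Gm14536 and Gm11830 had low means (11.5, 7.41 and 9.12 normalized counts).

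Of the genes of the same processes only 1 passed the test in any comparison, where 0% of all tested genes were called between RvD6 and vehicle, 0.235% between RvD6si and RvD6 and 0.67% between RvD6si and vehicle. Of the 8 protein deacylation genes tested beside Lypla1 none was called in any comparison, and their median log2 fold change under RvD6si was 0.12, against 0.02 over all tested genes. Ppt1, the lysosomal palmitoyl-protein thioesterase, was level at 1272, 1270 and 1262 normalized counts in vehicle, RvD6 and RvD6si. None of the 21 tested palmitoyltransferases, which add the palmitate that Lypla1 removes, was called either. By an unadjusted p under 0.05, 7 of them were higher and 1 lower under RvD6si, against 8.69% of all tested genes higher, and the median of the list was 0.24. Zdhhc2, the most counted of them, had means of 1653 ± 170, 1931 ± 366 and 2219 ± 414 (n = 5, adjusted p = 0.179 under RvD6si in edgeR).

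Of the 26 tested elongation genes beside Tcea1, 1 was called under RvD6si and in the lower direction, where 0.67% of all tested genes were called. Supt5, which pairs with Supt4a in the factor that holds RNA polymerase II on its template, had means of 402 ± 57.4, 390 ± 47.6 and 246 ± 42.5 (n = 5) and fell by 0.72 on the log2 scale (SE 0.16, adjusted p = 0.0455 in edgeR). The median of the list was -0.00105. Eloc, Aff4 and Nelfb, among the most counted, had log2 fold changes of -0.02, 0.07 and 0.12. None of the 13 RNA polymerase II subunits was called, and 4 had a log2 fold change above 0, with a median of -0.27. Polr2b, the second largest subunit, had means of 267 ± 81.6, 393 ± 131 and 524 ± 101 (log2 fold change 0.97 under RvD6si, adjusted p = 0.0631), and it was named after its values were seen.

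Of the 11 genes for ligands and partners of anthrax toxin receptors none was called in any comparison, while 10 lay above 0 under RvD6 and 9 under RvD6si, with a median of 0.22 under RvD6si. Over all tested genes 52.2% lay above 0 under RvD6 and 51.2% under RvD6si, with a median of 0.02 under RvD6si. Lamb1, a laminin chain, had means of 819 ± 108, 985 ± 238 and 946 ± 231 normalized counts (n = 5), and Col4a1, a chain of basement membrane collagen, 258 ± 76.3, 309 ± 57.1 and 307 ± 92.0. Antxr1, the other anthrax toxin receptor, had 145 ± 42.7, 174 ± 37.3 and 125 ± 21.96, with a log2 fold change of -0.22 under RvD6si (adjusted p = 0.695 in edgeR). Of the 10 tested genes of Golgi traffic and nicotinic receptors set beside Unc50 none was called, with 5 above 0 under RvD6si and a median of -0.01. Arf1, a small GTPase of Golgi coat assembly, had 2700 ± 608, 2284 ± 195 and 2563 ± 223, and Chrnb2, a nicotinic receptor subunit, 629 ± 47.2, 471 ± 184 and 527 ± 160.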

How the data were processed

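RNA from 15 TG was sequenced by an adapted Smart-seq2 protocol, which primes on the poly(A) tail, amplifies the cDNA and keeps no strand. The authors aligned the reads to GRCm38 and counted them per gene on exons with featureCounts (Subread), with GENCODE release 22. The deposited values are raw read counts with an exonic length per gene, and no comparison columns were used. Symbols came from GENCODE release 21 (99.8% of identifiers).

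The 5 genes and all gene lists were chosen with earlier results of these data known. Named beside them were list genes past the threshold or most counted, paralogs, the 2 nearest tested genes on each side and the 3 most alike genes. edgeR 4.0.16 in R 4.3.3 (quasi-likelihood test, TMM, filterByExpr with a minimum count of 10 and a minimum total of 15, 16567 genes, all samples in 1 fit, Benjamini-Hochberg adjustment) gave fold changes, SE and intervals. SE is the log2 fold change over the square root of F, and intervals are at 95%. Normalized counts are counts over DESeq2 1.42.0 size factors. TPM was computed from counts and exonic length. Likeness is Pearson r of log2 CPM (prior count 2) less group means. The fit was also run on simulated counts without outlying libraries, which does not test it on libraries such as those named above.

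Alternatives were DESeq2, edgeR on 2 groups, RLE, no filter, at least 10 counts in every sample, trends on length or transcript GC removed (lowess, span 0.3), the 10 most counted genes left out, thinning to 4125962 counts, and each sample left out. Removal of the GC trend and of 2 libraries together was added after the data were seen. Pairs of samples of a group had a chi-square of 11.3 to 49.2 per degree of freedom between their counts, where counting alone gives about 1, so none was a copy of another. No source states that each library came from a different mouse, so p-values measure the spread between these samples. The exonic GC alternative was not run, since the genome sequence was not used here. One list of genes set beside Mpzl3 is not reported here.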

Additional observations from a re-analysis of the deposited data

Results flagged for a closer look

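In 2 of the 15 groups of 5 values (5 genes in 3 treatments) the highest sample stood far from the other 4 by Dixon's criterion, which chance alone meets in about 1 of 20 groups. For Unc50 this was RvD6 replicate 9, with 403 normalized counts against 121 to 160 in the other RvD6 TG. For Lypla1 it was vehicle replicate 3, with 206 against 174 to 178 in the other vehicle TG. The 5 vehicle values of Lypla1 varied by 7.44%, where counting alone gives 6.82%.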

How the results depend on the processing

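No paired analysis was possible because replicate numbers 1 to 15 each occur in 1 group only. The fold changes of the 5 genes between RvD6 and vehicle and between RvD6si and RvD6 were refitted 250 times under other settings, and 243 of these kept their direction and their side of the threshold. The 2 turned signs were Antxr2 between RvD6si and RvD6, at -0.0505 without RvD6 replicate 8 and -0.0332 without RvD6si replicate 11, in a range up to 0.30 when single samples were left out. The number of the 5 genes called between RvD6 and vehicle was 0, and 1 (Antxr2) with DESeq2, with no filter and with at least 10 counts in every sample, and 0 to 1 when single samples were left out, with 1 without RvD6si replicate 15. Between RvD6si and RvD6 it was 0, and 1 (Mpzl3) with DESeq2, and 0 when any single sample was left out. Between RvD6si and vehicle it was 3, and 5 with DESeq2, with edgeR on the 2 groups, with at least 10 counts in every sample and without RvD6 replicate 9 and RvD6si replicate 15 together. It was 2 with the length trend removed. It was 0 to 5 when single samples were left out, with 0 without any 1 of the vehicle replicates or RvD6si replicate 11 or 14, 1 without RvD6si replicate 13 and 5 without RvD6 replicate 9. Calls over all genes moved as much, from 0 (RvD6 against vehicle), 39 (RvD6si against RvD6) and 111 (RvD6si against vehicle) in edgeR to 369, 185 and 920 in DESeq2, and to 0 for RvD6si against vehicle without RvD6si replicate 11. The cause was not tested. The fewest reads behind a value of Mpzl3 or Antxr2 were 19 and 41 in a sample.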
